A study of Mus musculus with 6 samples.

Results

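The genes of excitation-contraction coupling and of the muscle calcium store were described in cultures of satellite cells, which are the stem cells of skeletal muscle and rebuild its fibres after injury. The set was a fixed list of 10 gene symbols, and all 10 were found by symbol among the 55536 genes of the count tables: Ryr1, Ryr3, Cacna1s, Cacng1, Atp2a1, Atp2a2, Casq1, Casq2, Jph1 and Trdn. All 10 passed the filter on low counts that left 22404 genes for testing. RNA-seq was performed on 3 control and 3 cKO samples from adult male mice of C57BL/6J background. Control mice were Pax7CreErt2;Hira fl/+ and cKO mice were Pax7CreErt2;Hira fl/fl, so both groups carried the inducible Cre, which the Pax7 gene drives in satellite cells, and at least 1 floxed Hira allele. Both were fed tamoxifen, and their tibialis anterior muscle was injured with BaCl2. The sample labels call the control group wild type; the genotypes given here are those of the study's methods. Cells were sorted 5 days post-injury (CD34+ ITGA7+ and CD45- TER119- SCA1-), cultured for 48 h in high serum at low density and then lysed, so that the RNA comes from a whole culture and not from sorted cells directly. The samples are described as independent RNA samples, and the text does not state whether each came from a separate mouse, so p-values measure the spread between these samples only.

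In skeletal muscle, depolarization of the transverse tubule membrane moves a voltage sensor, the L-type calcium channel, which opens ryanodine receptors in the facing membrane of the sarcoplasmic reticulum. Calcium leaves this store, triggers contraction and is pumped back by SERCA ATPases, while calsequestrin buffers it inside the store. Junctophilins hold the apposed membranes together, and triadin ties calsequestrin to the ryanodine receptor. Most of these genes are switched on as myoblasts differentiate, while Atp2a2 is also expressed in many other cells. Several have a skeletal and a cardiac or embryonic paralog. The comparison of cKO with control asks how they are expressed in satellite cells after induced deletion of Hira. This gene encodes a chaperone that places histone H3.3 on DNA.

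Each library held from 47944477 to 63323577 counted reads, and the 10 genes took from 0.284% to 0.317% of them. Levels below are CPM (counts scaled to library size) after scaling of the libraries by the TMM method, and fold changes come from a quasi-likelihood test in edgeR, whose p-values were adjusted by the Benjamini-Hochberg method for 22404 genes. Hira itself was at 6.69, 5.54 and 5.61 CPM in control samples 1, 2 and 3 and at 3.34, 4.88 and 4.86 CPM in cKO samples 1, 2 and 3 (log2 fold change -0.43, standard error 0.12, adjusted p = 0.0237 in edgeR). Hira RNA was thus lowered in cKO but still present. The paper reports a sharp decrease of Hira RNA by RT-qPCR and no detected HIRA protein in cKO satellite cells. Its RT-qPCR decrease was larger than the one in these counts, and the reason for the difference was not tested. Control cells carried a floxed allele too, so their Hira gene may not be intact. Of the markers of the labelled cell type, Pax7 was at 39.7 ± 0.77 CPM and Myod1 at 779.9 ± 13.8 CPM in control, while Cd34, used in the sort, was at only 2.33 ± 0.176 CPM after culture (SD, n = 3) and Chodl had 5 to 12 counts in any sample and was not tested. The cultures also held differentiating muscle cell transcripts, with Myog, the factor of terminal differentiation, at 2131 ± 15.5 CPM in control (SD, n = 3).

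All 10 genes were transcribed in every sample, and their levels per length spanned a wide range. Scaled to the length of merged exons and to the counted reads (RPKM), Casq2 was the highest, with a mean of 307 and a range of 270 to 326 over the 6 samples. Cacng1 followed at 178, Atp2a2 at 129, Atp2a1 at 64.5, Casq1 at 59.8, Cacna1s at 37.0, Jph1 at 23.6, Ryr1 at 20.0 and Trdn at 7.35 RPKM. Ryr3 was the lowest, with a mean of 0.474 and a range of 0.420 to 0.572. Neighbours in this order had separate ranges except for Atp2a1 and Casq1, whose ranges over the samples overlapped. Because the aligner did not split reads over introns, a read of spliced RNA could be placed whole only where it lay within an exon. The share of exon positions that allow this ran from 50.1% in Cacna1s to 90.8% in Jph1. Counting only those positions as length kept 8 of the 10 ranks and put Ryr1, at 30.6, above Jph1, at 26.1. The libraries were made from total RNA, so reads of unspliced RNA could also cross exon borders, and their share was not measured.

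**Figure D1:**
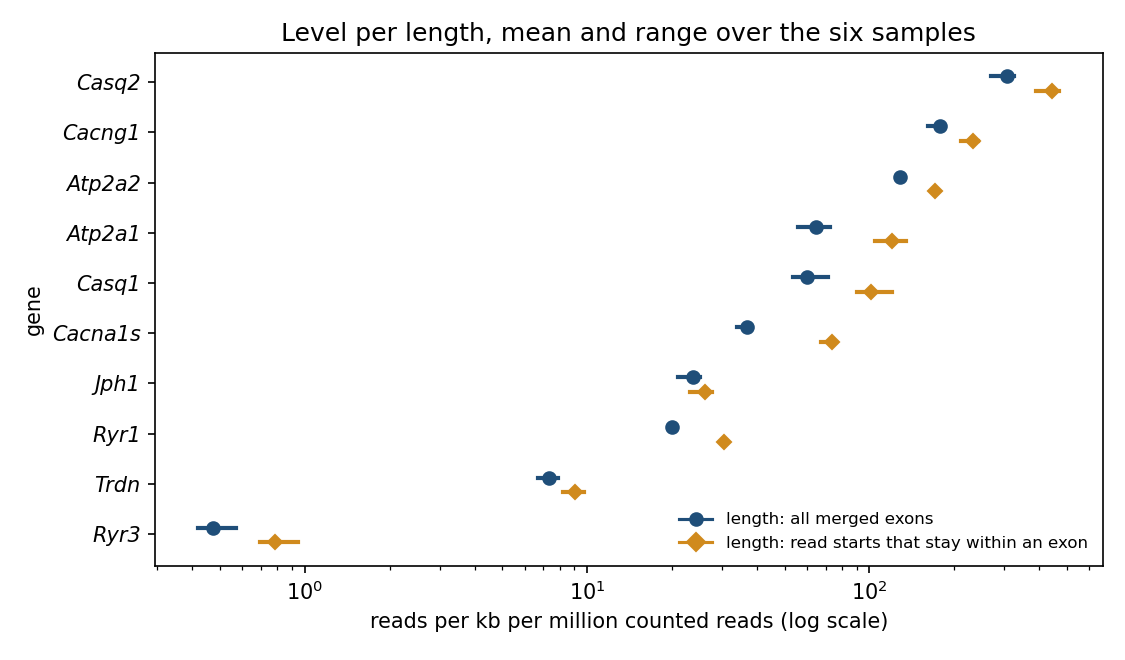
RPKM of each gene on a log axis, with the mean (symbols) and the range over the 6 samples (lines), for 2 definitions of length. Casq2 is the highest at a mean of 307 and Ryr3 the lowest at 0.474 with merged exons as length, and Ryr1 and Jph1 change places when only positions that hold a whole read count.

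Between cKO and control the 10 genes differed by small amounts. With an adjusted p under 0.05, Jph1 was downregulated and Ryr3 was upregulated in cKO, which is 1 of 10 genes in each direction, against 6.46% of all tested genes downregulated and 9.38% upregulated. The log2 fold change was below 0 for 8 of the 10 genes, with a median of -0.11, where the median of all genes tested was -0.0011. The cKO samples were all below the control samples for Cacna1s, Cacng1, Jph1 and Trdn, 4 of the 10 genes, and this held for 15.0% of all tested genes. They were all above the control samples for Ryr3 alone, against 16.8% of all tested genes.

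The cKO samples did not move by the same amount. Of the 6 samples, cKO sample 2 was the lowest for 8 of the 10 genes, while cKO sample 1 was the highest cKO sample for 9 of them. Averaged over the 10 genes on the log2 scale and centred per gene, the samples stood at 0.057, 0.018 and 0.0014 in control and at 0.038, -0.10 and -0.010 in cKO. The mean of cKO sample 1 was thus inside the control range. This sample also had the lowest Hira level, and a relation between Hira level and these genes was not tested. Without cKO sample 1, 6 of the 10 genes were called downregulated (Jph1, Cacna1s, Casq2, Atp2a1, Trdn and Cacng1), against 7.33% of all genes tested in that fit, and the median log2 fold change of the 10 was -0.14. Without cKO sample 2, the median was -0.057, and Jph1 was called downregulated and Casq1 upregulated, against 6.59% and 8.11% of all genes tested in that fit.

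**Figure D2:**
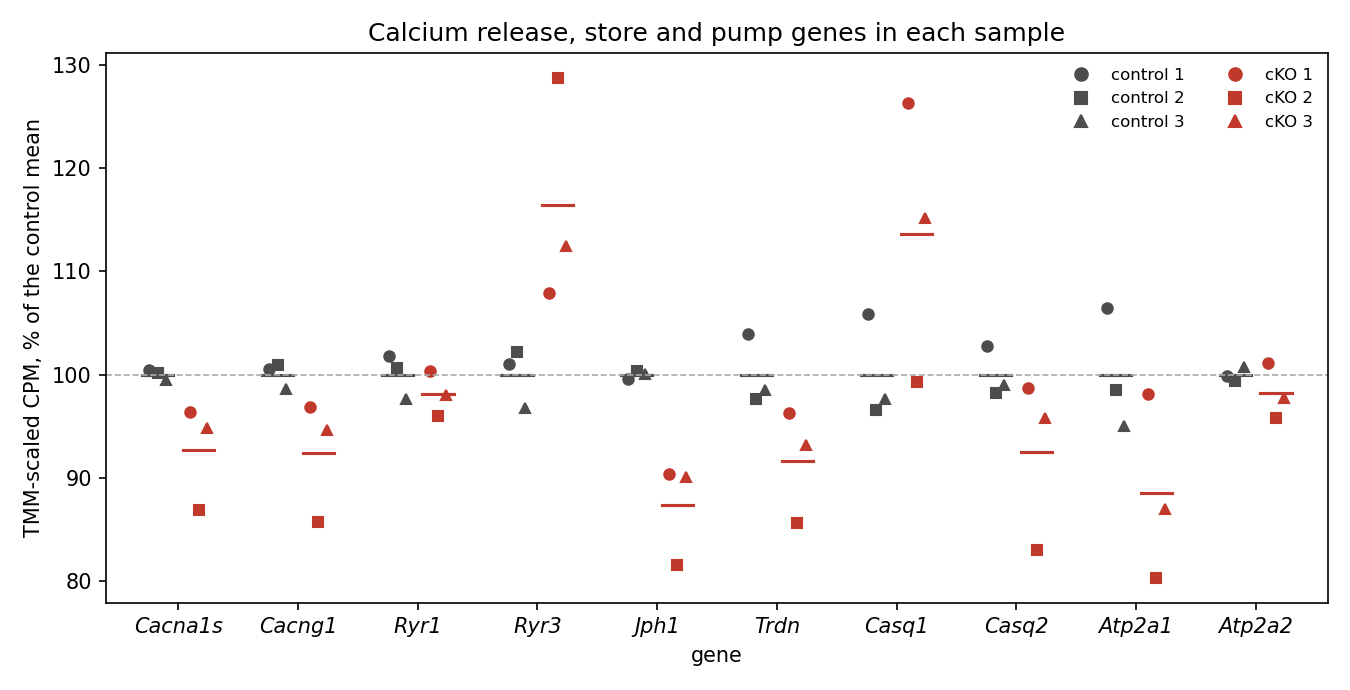
TMM-scaled CPM of each gene in each sample, as a percent of the mean of the control samples, with symbols for samples and bars for group means. In cKO sample 2 (red squares) 8 of the 10 genes have their lowest value, and Jph1 has all cKO samples below the tight control samples.

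Jph1 encodes junctophilin 1, which bridges the transverse tubule and the sarcoplasmic reticulum, and lies on the minus strand of chromosome 1 (16964560 to 17097889 in mm10). It was at 126, 127 and 126 CPM in control and at 114, 103 and 114 CPM in cKO. The control samples lay within about 1 CPM of each other, and all cKO samples were lower. Its mean level was 12.7% lower in cKO. The fitted log2 fold change of -0.20 had a standard error of 0.039 and passed the threshold (adjusted p = 0.00239 in edgeR). The call held when any 1 sample was left out, with log2 fold changes from -0.22 to -0.15. Trdn, on the plus strand of chromosome 10 (33080554 to 33476709), encodes triadin. It was at 74.6, 70.1 and 70.7 CPM in control and at 69.1, 61.5 and 66.9 CPM in cKO. Its groups did not overlap, but only about 1 CPM separated control sample 2 from cKO sample 1. Its log2 fold change of -0.13 did not pass the threshold (95% interval -0.22 to -0.034, adjusted p = 0.0634 in edgeR).

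Cacna1s and Cacng1 encode the pore and the gamma subunit of the voltage sensor and lie on chromosome 1 (136052750 to 136119822, plus strand) and chromosome 11 (107703218 to 107716522, minus strand). Cacna1s was at 253, 252 and 250.03 CPM in control and at 242, 219 and 238 CPM in cKO. Cacng1 was at 233, 234 and 228 CPM in control and at 224, 198 and 219 CPM in cKO. For both genes all cKO samples were below all control samples, and cKO sample 2 lay farthest down. The log2 fold changes were -0.11 for both, with 95% intervals of -0.19 to -0.031 for Cacna1s and -0.20 to -0.029 for Cacng1. Neither passed the threshold in edgeR (adjusted p = 0.0581 and 0.0679), and both passed it in DESeq2, with adjusted p = 0.0356 for Cacna1s and 0.0439 for Cacng1. The gene Gm37759 on the other strand overlaps 20.0% of the exonic bases of Cacna1s. The library kit marks strand, but the strand setting of the counting is not given in the sources used here. The corresponding shares were 8.0% for Casq1, 4.83% for Ryr3, 4.19% for Ryr1 and at most 1.37% for the others but Atp2a1, and no member shared exonic bases with another gene on its own strand.

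Ryr1 and Ryr3 encode ryanodine receptors, the calcium release channels, of which Ryr1 is the skeletal form and Ryr3 is found mostly in developing muscle. Ryr1, on chromosome 7 (29003344 to 29125179, minus strand), was at 449, 444 and 430.5 CPM in control and at 442.5, 423 and 432 CPM in cKO. The groups overlapped, and the 95% interval of the log2 fold change reached from -0.093 to 0.038 around a value of -0.027 (adjusted p = 0.641 in edgeR). Ryr3, on chromosome 2 (112631355 to 113217096, minus strand), had 470, 533 and 489 counts in control and 432, 642 and 523 counts in cKO. On the CPM scale this was 8.39, 8.49 and 8.04 in control and 8.96, 10.7 and 9.34 in cKO. All cKO samples were above the control samples, with cKO sample 2 standing highest. The log2 fold change was 0.22 (standard error 0.072), and it passed the threshold narrowly (adjusted p = 0.0491 in edgeR). It was not called by DESeq2 (adjusted p = 0.132), and without cKO sample 2 the log2 fold change was 0.14 with an adjusted p of 0.235 in edgeR. Ryr1 remained the main transcript: per exon kilobase it exceeded Ryr3 by 46.5, 45.4 and 46.5 times in control and by 42.9, 34.4 and 40.2 times in cKO. The cardiac receptor gene Ryr2 had only 2 to 10 counts in any sample and was not tested.

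The calsequestrin genes Casq1 and Casq2, whose products store calcium in skeletal and in cardiac or slow and developing muscle respectively, are the pair of paralogs whose ratio shifted most between the groups when all samples were used (without cKO sample 1 the log2 ratio of Ryr3 to Ryr1 shifted more, by 0.31 against -0.26), so the 250 bases before their RefSeq starts are shown (GRCm38.p6, 5′ to 3′ on the strand of the gene). The Casq1 sequence lies at chr1:172219896-172220145 on the minus strand and the Casq2 sequence at chr3:102086165-102086414 on the plus strand. Capitals mark E-boxes (CANNTG, the motif of MYOD and other basic helix-loop-helix factors, which reads the same on both strands; the other motifs were searched on both) and, in Casq2, a match to the MEF2 motif.
Casq1: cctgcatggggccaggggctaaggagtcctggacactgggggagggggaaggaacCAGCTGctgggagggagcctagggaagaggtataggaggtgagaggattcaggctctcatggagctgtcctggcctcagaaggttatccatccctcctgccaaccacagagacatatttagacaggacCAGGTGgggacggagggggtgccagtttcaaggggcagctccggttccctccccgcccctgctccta
Casq2: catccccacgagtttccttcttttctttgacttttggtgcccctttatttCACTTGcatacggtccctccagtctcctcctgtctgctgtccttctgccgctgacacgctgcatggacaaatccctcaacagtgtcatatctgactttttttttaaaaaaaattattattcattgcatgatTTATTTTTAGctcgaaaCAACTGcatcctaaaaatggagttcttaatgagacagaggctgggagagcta
Each window held 2 E-boxes, at 195 and 67 bases before the start in Casq1 and at 200 and 52 bases in Casq2, counted to the first base of the match. At least 1 E-box was found in 66.2% of the 32544 distinct mouse promoter windows of the same length, so its presence does not set these genes apart. The MEF2 match, 69 bases before the Casq2 start, has a counterpart in 2.89% of the windows, and none was found for Casq1. No match overlapped another. A promoter was listed for 5 of the 10 genes; Cacna1s had 2 E-boxes, Atp2a1 had 1 and Ryr1 had 0, and the SRF CArG box, found in 1.48% of all windows, was in 0 of the 5. The bases were 41.6% G or C in Casq2 and 61.6% in Casq1.

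Casq1, on chromosome 1 (172209894 to 172219868, minus strand), was at 116, 106 and 107 CPM in control and at 138, 109 and 126 CPM in cKO. The groups overlapped, because cKO sample 2 lay below control sample 1. The log2 fold change was 0.18 (95% interval 0.046 to 0.32, adjusted p = 0.0693 in edgeR). It passed the threshold without cKO sample 2 (log2 fold change 0.27, adjusted p = 0.000508 in edgeR) and without control sample 1 (adjusted p = 0.0487 in edgeR). It did not pass in 4 of the 6 fits with 1 sample left out, or in DESeq2 (adjusted p = 0.352). Casq1 was called in 6 of 13 alternative settings. Casq2, on chromosome 3 (102086415 to 102146514, plus strand) and the most abundant of the 10 per length, was at 899, 859 and 866 CPM in control and at 863, 726 and 838 CPM in cKO. The groups overlapped narrowly, and its log2 fold change of -0.11 did not pass the threshold (95% interval -0.22 to -0.0069, adjusted p = 0.152 in edgeR).

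Within a sample, the ratio of paralogs does not depend on how libraries are scaled. Per exon kilobase, Casq2 exceeded Casq1 by 5.54, 5.80 and 5.79 times in control and by 4.46, 4.77 and 4.74 times in cKO. The groups did not overlap, and each differed little within itself. The difference of the mean log2 ratio, cKO minus control, was -0.29, with SDs of 0.038 in control and 0.055 in cKO (n = 3 each). The log2 ratio of Ryr3 to Ryr1 was 0.24 higher in cKO, again with no overlap. For both ratios the exact two-sided permutation test over 3 against 3 samples gave p = 0.1, the smallest value this design allows, and 0.15 after adjustment over the 3 ratios tested. This permutation test therefore cannot reach the 0.05 threshold with 3 samples a group.

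Atp2a1 and Atp2a2 encode the SERCA pumps that return calcium to the store, SERCA1 of fast skeletal muscle and SERCA2 of cardiac and slow muscle and of many other cells. Atp2a1, on chromosome 7 (126445858 to 126463108, minus strand), was at 254, 235 and 226 CPM in control and at 234, 192 and 207 CPM in cKO. Both groups spread widely and overlapped, since cKO sample 1 lay above control sample 3. The log2 fold change was -0.18 (95% interval -0.30 to -0.053, adjusted p = 0.0516 in edgeR), and without cKO sample 1 it was -0.26 (adjusted p = 0.000211 in edgeR). It did not pass the threshold in the other 5 of the 6 fits with 1 sample left out, or in DESeq2 (adjusted p = 0.258). Atp2a1 was called in 4 of 13 alternative settings. Exons of Rabep2 on the other strand overlap 21.9% of the exonic bases of Atp2a1, and how many of its counts fell there was not measured. Atp2a2, on chromosome 5 (122453513 to 122502225, minus strand), was at 789, 785 and 796 CPM in control and at 799, 756 and 772 CPM in cKO. The cKO range enclosed the control range, and the 95% interval of the log2 fold change ran from -0.090 to 0.039 (value -0.026, adjusted p = 0.655 in edgeR). Of the windows of its longest coding transcript that are as long as a read, 3.08% also occur in Gm30970. The ratio of Atp2a2 to Atp2a1 per exon kilobase was 1.78, 1.91 and 2.01 in control and 1.95, 2.26 and 2.13 in cKO. The groups overlapped (exact two-sided permutation test, p = 0.2, and 0.2 after adjustment over the 3 ratios).

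**Figure D3:**
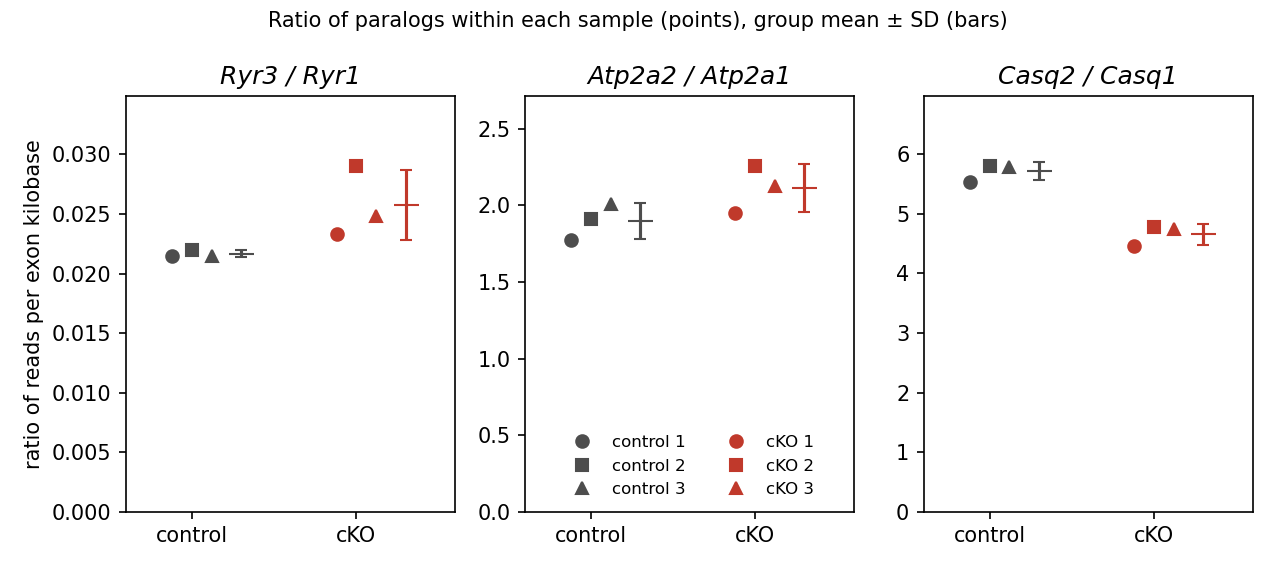
Ratio of reads per exon kilobase of paralogous genes in each sample (points), with the group mean and SD (bars), for ryanodine receptors, SERCA pumps and calsequestrins. Casq2 over Casq1 lies between 5.54 and 5.80 in control and between 4.46 and 4.77 in cKO, and the SERCA ratios of the groups overlap.

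Transcripts of differentiating muscle cells were also lower in cKO. Of 18 differentiating muscle cell markers, 11 were downregulated and 1 was upregulated, with a median log2 fold change of -0.18, and their summed level was 42946 to 44491 CPM in control and 34549 to 37996 CPM in cKO. The lowest sum belonged to cKO sample 2. Of 10 satellite cell and myoblast markers 9 were tested, and 6 were downregulated and 1 was upregulated (5050.1 to 5153 CPM in control, 4422 to 4805 CPM in cKO). In bulk samples fewer differentiating cells and less RNA per cell cannot be told apart. When libraries were scaled instead to the geometric mean of these 18 markers, a choice made after the data had been seen, the median of all genes moved up by 0.15 and the median of the 10 genes was 0.037. On that scale the log2 fold changes of Ryr1, Cacna1s, Cacng1, Atp2a2, Casq2 and Trdn turned positive, Jph1 was at -0.047 and was no longer called, and Casq1 and Ryr3 were called upregulated at 0.33 and 0.38, as were 18.2% of all tested genes. Relative to the median of all genes the median of the 10 was -0.11 on either scale. This follows by construction, since a change of scale moves all genes by nearly the same amount.

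**Figure D4:**
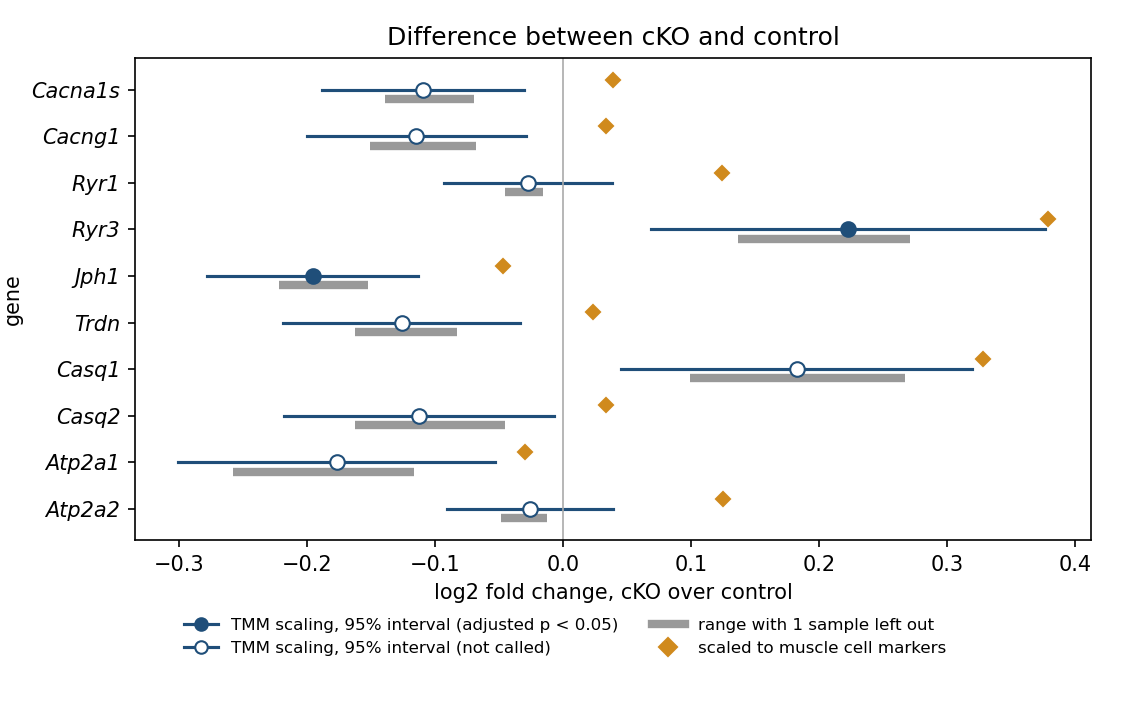
Log2 fold change of each gene, cKO over control, with its 95% interval under TMM scaling (circles, filled where the adjusted p is under 0.05), the range when 1 sample is left out (grey bars) and the value after scaling to 18 muscle cell markers (diamonds). Jph1 and Ryr3 are filled, at -0.20 and 0.22, and the diamonds lie to the right of the circles for all 10 genes.

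Markers of other cell types were measured in the same samples. All 14 macrophage markers were upregulated, with summed levels of 146 to 151 CPM in control and 307 to 355 CPM in cKO. Of the 10 fibroblast markers 8 were tested. All 8 had a log2 fold change above 0 and 6 were upregulated, with summed levels of 669 to 698 CPM and 937 to 1027 CPM. Of the 10 smooth muscle and pericyte markers 9 were tested, and 6 were upregulated and 2 downregulated (3339 to 3392 CPM and 3567 to 3659 CPM). Of the 10 endothelial markers, all of them tested, 5 were upregulated (18.3 to 20.8 CPM and 28.3 to 33.5 CPM). The sort removed CD45+ cells, among them macrophages, and SCA1+ cells, which include many fibroblasts and endothelial cells of muscle. The part of these cells in the values of the calcium genes was not tested. For Casq2, Atp2a2 and Ryr2, which are used in heart, the cardiac list is given. Of its 11 markers 5 were tested, and 3 were upregulated. Myl4, which embryonic skeletal muscle also expresses, was downregulated, with means of 1068 ± 24.6 (control) and 834 ± 87.7 CPM (cKO; SD, n = 3 each). It made up most of the summed level of the list, 1118 to 1166 CPM in control and 841 to 1022 CPM in cKO. Tnni3 was not called. The upregulated genes were Myh6, a cardiac myosin gene, with means of 67.1 ± 1.39 (control) and 96.8 ± 3.64 CPM (cKO; SD, n = 3 each), and the transcription factor genes Hand2, with 7 to 9 counts in control and 31 to 36 in cKO, and Tbx20, with 9 to 26 and 37 to 51 counts. Nkx2-5 had 1 to 3 and 3 to 11 counts and was not tested. Of the other defining genes Myl7 had 0 counts in all samples, Tbx5 and Nppa had at most 1 count, and Gata4 had 5 to 10 counts.

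Other genes of calcium handling were put on 11 lists, written from general knowledge but with earlier results of these data known. Of these 92 genes, 91 were found and 86 were tested. In cKO, 14 were upregulated and 23 downregulated, and their median log2 fold change was -0.047. In the list of triad and T-tubule structure, to which Jph1 and Trdn are closest in function, 7 of 16 genes were downregulated and 1 was upregulated, with a median of -0.083. Jph2, the second junctophilin, was at 587, 557 and 562 CPM in control and at 488, 489 and 529.9 CPM in cKO (log2 fold change -0.18, adjusted p = 0.00319 in edgeR). Its level fell in every cKO sample below the control range, as that of Jph1 did. Tmem38b, a channel that balances charge across the store membrane, was downregulated by a log2 fold change of -0.28 (adjusted p = 0.000562 in edgeR).

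Around the voltage sensor, 3 of 12 genes were upregulated and 3 were downregulated, with a median log2 fold change of 0.12. Stac2, an adaptor of L-type channels, and Cacnb3, a beta subunit of such channels, were upregulated, by log2 fold changes of 0.71 and 0.47. Both were expressed at low levels, 5.87 ± 0.322 and 13.0 ± 0.302 CPM in control (SD, n = 3). Cacna1c, also upregulated, had a mean of 8.12 CPM in control. The downregulated genes were Cacna2d1, Cacng6 and Rem1. Their means were 190, 38.0 and 17.4 CPM in control and 170, 32.6 and 13.1 CPM in cKO. Stac, Cacnb2 and Cacnb4 had log2 fold changes above 0 but only 8 to 66 counts per sample, and were not called. Stac3, the adaptor that skeletal muscle needs for coupling, had means of 75.3 ± 2.85 (control) and 73.7 ± 2.50 CPM (cKO; SD, n = 3 each), with overlapping groups and a log2 fold change of -0.030 (adjusted p = 0.683 in edgeR). Among 9 partners of the release channel, of which 8 were tested, 1 was upregulated and 2 were downregulated. The upregulated gene was Sri, which encodes sorcin, a calcium binding protein of the release channel, with a log2 fold change of 0.35, and Homer2, a scaffold protein, was downregulated by -0.61 from only 1.19 CPM in control.

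In the store itself, 1 of 6 tested calcium binding genes was upregulated and 2 were downregulated. The downregulated genes were Srl, which encodes sarcalumenin, and Hrc, which encodes a histidine-rich calcium binding protein, both proteins of the muscle reticulum, with log2 fold changes of -0.19 each (adjusted p = 0.00719 and 0.00409 in edgeR). Srl was at 1211, 1187 and 1195 CPM in control and at 1117, 959 and 1069.9 CPM in cKO. It was lower in all cKO samples and lowest in cKO sample 2, as Trdn was. Of the 5 tested pump regulators and pump relatives 0 passed the threshold in edgeR and 0 in DESeq2, and 0 had an unadjusted p under 0.05 in edgeR. The SERCA inhibitors Sln and Pln were scarce, with 78 to 130 counts and 12 to 23 counts per sample.

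Calcium entry and exit at the cell surface showed changes in both directions. For store-operated entry, 2 of 9 tested genes were downregulated. Orai1, the pore of that pathway, was at 42.4, 45.0 and 43.0 CPM in control and at 37.0, 35.5 and 35.3 CPM in cKO, with groups well apart (log2 fold change -0.27, adjusted p = 0.00016 in edgeR). Stim1, the sensor of store calcium that opens it, had overlapping groups (log2 fold change -0.13, adjusted p = 0.16 in edgeR). Itpr1 and Itpr3, which encode IP3 receptors, the release channels that most other cells use, were upregulated by 0.17 and 0.16 on the log2 scale. Of the 5 tested extrusion genes, the exchanger gene Slc8a3 was upregulated by 0.31 and the pump gene Atp2b4 was downregulated by a log2 fold change of -0.36.

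The remaining lists were those of the mitochondrial uniporter, membrane excitability and calmodulin with its kinase. Among 7 uniporter genes 2 were upregulated, Mcub at 0.64 and Micu3 at 0.21 on the log2 scale, and 4 were downregulated. For excitability 1 of 8 genes was upregulated and 1, the muscle sodium channel gene Scn4a, was downregulated (log2 fold change -0.30, adjusted p = 0.0018 in edgeR). Of the 7 calmodulin and CaM kinase genes 2 were upregulated, among them Calm2 at 0.18, and 1 was downregulated, Camk2b at -0.29.

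**Figure D5:**
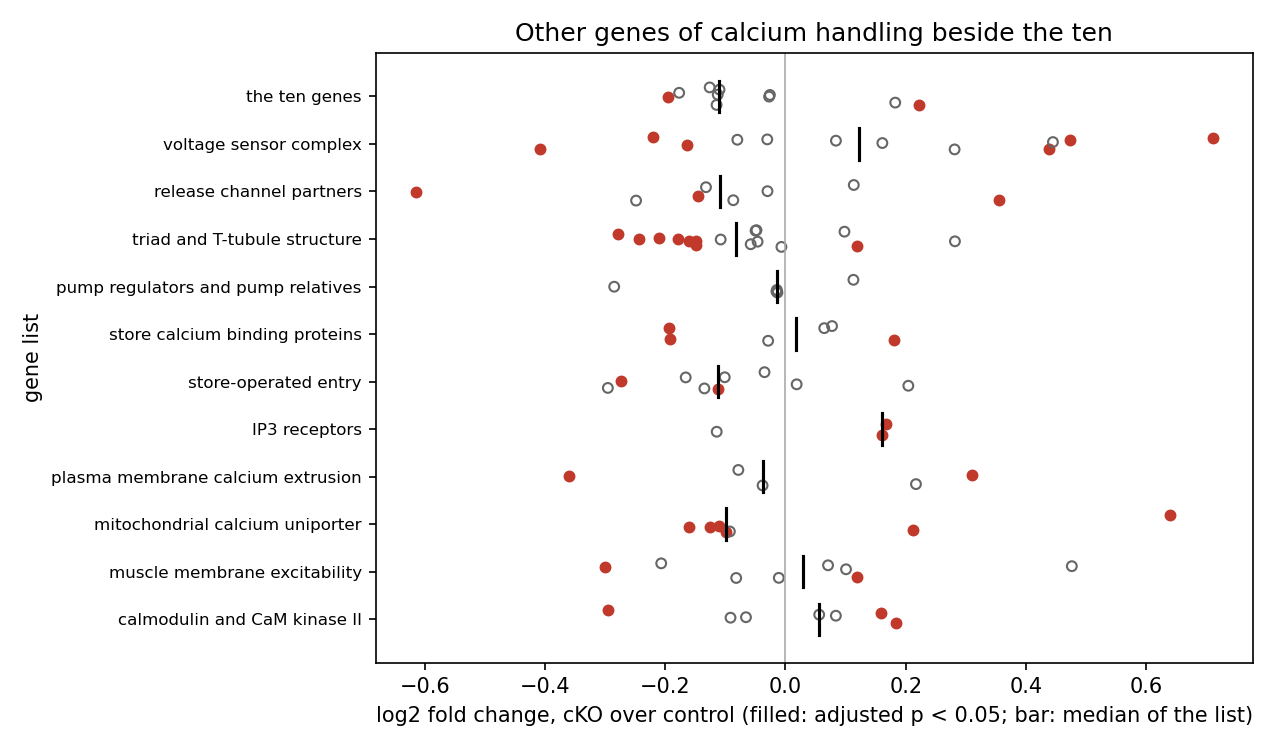
Log2 fold change, cKO over control, of the tested genes of each calcium handling list (points, filled where the adjusted p is under 0.05) with the median of the list (bars). The medians lie between -0.11 and 0.16, and the triad list has 7 of its 8 filled points below 0.

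The genes whose pattern over the 6 samples was most like the mean of the 10 were sought among 8843 protein-coding genes with a mean of at least 10 CPM. They were Rrad (Pearson's r = 0.998), Hspa1b (0.993), Idh2 (0.993), Impdh2 (0.990) and Klhl40 (0.989). Rrad encodes a small GTPase that inhibits L-type channels and Klhl40 a protein of the muscle thin filament. The points are 6 samples that share their group and library with the calcium genes, so these values only describe the likeness. Their log2 fold changes lay between -0.15 and -0.027.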

How the data were processed

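RNA-seq of 3 control and 3 cKO cultures was used. The authors aligned single-end reads of 75 bp to mm10 with Bowtie2 2.3.4.2 and deposited raw counts per gene made with featureCounts 1.6.3; the strand setting of the counting is not given in the sources used here. Their normalized table and their DESeq2 2.11.40.6 comparison were not used. Symbols, coordinates and exon lengths come from GENCODE M21.

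Counts were filtered with filterByExpr, scaled by TMM and tested with edgeR 4.0.16 (R 4.3.3; quasi-likelihood test with genotype and no other term). The threshold was an adjusted p under 0.05 by the Benjamini-Hochberg method, over 22404 genes. The test was tried on simulated data. Depth was 47944477 to 63323577 counts per sample, and the common variation between replicates was 3.92%. Replicates of a group differed by more than sampling noise. Ratios of paralogs were tested by exact permutation in Python 3.11.15 with scipy 1.17.1. DESeq2 1.42.0, other scalings and filters, a replicate block and leaving out each sample were tried. The members and gene lists were chosen with earlier results of these data known. Named genes are the 10, Hira, fixed partners, called genes among the 2 largest changes of a list, and the 5 nearest patterns. Other genes named for a count of markers or to describe the voltage sensor list were chosen after their values were seen.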

Additional observations from a re-analysis of the deposited data

How the results depend on the processing

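The 8 genes below 0 and the 2 above 0 kept their direction under DESeq2, RLE size factors, total-count scaling, either filter, the replicate block and every leave-one-out fit. Jph1 was called in 12 of 13 alternatives and Ryr3 in 5 of 13. Scaling to muscle markers, chosen after seeing the data, reversed Ryr1 (0.12), Cacna1s (0.039), Cacng1 (0.034), Atp2a2 (0.12), Casq2 (0.034) and Trdn (0.024); this scale moves every gene up by construction. The number of the 10 genes called upregulated was 1, and it was 0 with DESeq2 and RLE size factors, 2 with total-count scaling, without a filter and with muscle marker scaling, and 0 to 1 with a sample left out. The number called downregulated was 1, and it was 3 with DESeq2, RLE size factors and the replicate block, 6 without a filter, 0 with muscle marker scaling and 1 to 6 with a sample left out. Over all 22404 genes tested the main fit called 2101 upregulated and 1448 downregulated. The fits with RLE size factors, total-count scaling, the replicate block and muscle marker scaling tested the same genes. Muscle marker scaling called 4085 of them upregulated (18.2%), and its number downregulated over all genes is not given here. The numbers upregulated and downregulated were 1601 and 1244 with DESeq2 and 2054 and 1510 with RLE size factors. They were 2462 and 1057 with total-count scaling and 2240 and 1796 without a filter. With a sample left out, 1571 to 2214 genes were upregulated. The cause of these shifts was not tested. Over all genes, leaving out a sample gave 917 to 1673 downregulated genes, with 917, 934 and 960 without control samples 1, 2 and 3, and 15 to 26 among the other calcium genes; these fits have fewer samples. The replicate block, which called 1901 genes upregulated and 1251 downregulated, pairs samples by number only: same-numbered deviations correlated at -0.0129, -0.0045 and -0.0145, and no sample correlated best with its own number. It left Ryr3 at an adjusted p of 0.055 and called Atp2a1, Trdn and Casq1. The 3 ratios kept their sign with each sample left out. With the longest coding transcript as length, 8 of the 10 ranks were kept, Ryr1 and Jph1 again changed places, and the ranges of Cacng1 and Atp2a2 overlapped. Depth limits Ryr2, Pln and Sln; Ryr3, at 432 to 642 counts, is the member with the largest counting error.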
